A study of Homo sapiens with 9 samples.

Results

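ARID1A peaks were divided by whether they met SNF5, a subunit found in every canonical form of the SWI/SNF complex. All 12852 ARID1A peaks were compared with the 20718 SNF5 peaks, and an ARID1A peak was placed in the SNF5 group when it shared 1 bp or more with an SNF5 peak. This left 9159 ARID1A peaks with SNF5 and 3693 without, so 71.3% of ARID1A peaks met an SNF5 peak, and this share is the background for every count below. The ChIP-seq libraries came from HepG2, an established line derived from a human hepatocellular carcinoma, with no gene knocked down and no drug added. Cells were fixed with formaldehyde, the chromatin was cut with micrococcal nuclease, and antibodies from Santa Cruz (ARID1A) and Bethyl (SNF5) were used, with 2 replicates per antibody. Each list was called by the authors on the merged reads of those 2 replicates. The lists carry no read counts, so there is no replicate error and the depth of each library is unknown. Intervals given here are 95% intervals that cover counting error over peaks only, and no p-values are given because peaks are not replicates. A missing SNF5 peak means that none was called there, which is not the same as absence of SNF5, and subunit, antibody and library depth cannot be told apart.

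SWI/SNF complexes use ATP to slide or evict nucleosomes and so open regulatory DNA to transcription factors. ARID1A is the DNA-binding subunit that defines, in alternation with ARID1B, the BAF form of the complex, while ARID2 belongs to the PBAF form. SNF5, also called BAF47, INI1 or SMARCB1, contacts the nucleosome and is shared by BAF and PBAF. A further form that lacks SNF5 is built around other subunits and does not contain ARID1A. HepG2 cells keep much of the hepatocyte program, and the factors that maintain it (HNF4A, the FOXA proteins and the C/EBP proteins) act to a large extent at enhancers in introns and between genes.

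The DNA under the ARID1A peaks differed between the groups in a few short motifs, and windows that hold them are shown first. Each window is the 200 bp around the midpoint of an ARID1A peak, read from the plus strand of GRCh37, the same assembly as the hg19 build of the lists. It overlaps no exon of the Gencode release 44 annotation, whereas distances to gene starts are those of the authors, from another release. In the intron and distal windows, capitals mark the letters of the HNF4 motif (CAAAGTCC), the FOXA motif (TGTTTAC), the C/EBP motif (TTGCNNAA) or the AP-1 motif (TGANTCA) on either strand. Windows were chosen after their letters were seen, as the pair in each group with the most kinds of motif, the widest peak first where windows tied, so they illustrate the motifs and not the typical site. The pair from peaks with SNF5 are a distal site 1051 bp from the SPATA2 start, with HNF4, FOXA and AP-1 letters, and an intronic site assigned to RP5-1004I9.1, with FOXA letters and with C/EBP and AP-1 letters that overlap each other.
SPATA2, chr20:48533034-48533233: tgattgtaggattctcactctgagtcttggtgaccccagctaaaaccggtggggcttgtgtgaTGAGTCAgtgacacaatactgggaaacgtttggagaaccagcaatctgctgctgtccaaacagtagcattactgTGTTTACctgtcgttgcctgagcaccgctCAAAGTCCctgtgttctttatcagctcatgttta
RP5-1004I9.1, chr20:22392569-22392768: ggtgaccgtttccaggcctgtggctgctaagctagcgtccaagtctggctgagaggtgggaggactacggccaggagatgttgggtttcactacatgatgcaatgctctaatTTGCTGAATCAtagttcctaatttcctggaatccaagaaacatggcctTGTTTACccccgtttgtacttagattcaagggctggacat
The pair from peaks without SNF5 are intronic sites assigned to TBC1D2, with FOXA, C/EBP and AP-1 letters, and to RPL32P33, with C/EBP and AP-1 letters. They lay 1425 bp and 11826 bp from the nearest SNF5 peak.
TBC1D2, chr9:100988847-100989046: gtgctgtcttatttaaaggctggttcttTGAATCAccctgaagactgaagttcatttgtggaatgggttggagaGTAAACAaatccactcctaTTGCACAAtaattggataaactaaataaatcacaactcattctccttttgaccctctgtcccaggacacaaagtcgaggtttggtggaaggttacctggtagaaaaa
RPL32P33, chr17:70628555-70628754: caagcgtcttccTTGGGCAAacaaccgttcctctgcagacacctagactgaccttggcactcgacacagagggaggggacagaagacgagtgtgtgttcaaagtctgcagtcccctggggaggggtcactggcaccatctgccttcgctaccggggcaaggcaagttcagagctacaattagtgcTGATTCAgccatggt
In the promoter windows, capitals mark the NRF1 motif (GCGCATGC), the ETS motif (CCGGAAG) or the SP motif (GGGCGG). NRF1, the ETS proteins and the SP and KLF proteins are general activators of promoters rich in CpG. TMEM41B has a peak with SNF5 only 81 bp wide, and its window holds NRF1, ETS and SP letters. By the authors' distance this peak lay 6 bp from a gene start, so the annotations differ there. The LSM14B peak with SNF5 was 1167 bp wide and holds ETS and SP letters. The TEX22 and FBXO46 promoter peaks stand for the promoters without SNF5, also carry ETS and SP letters, and lay 91249 bp and 6 bp from the nearest SNF5 peak.
TMEM41B, chr11:9336236-9336435: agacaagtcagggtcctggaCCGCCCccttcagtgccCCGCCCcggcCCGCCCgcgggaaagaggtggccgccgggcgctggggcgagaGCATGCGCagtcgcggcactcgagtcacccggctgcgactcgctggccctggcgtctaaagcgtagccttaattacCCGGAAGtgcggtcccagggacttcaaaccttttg
LSM14B, chr20:60696836-60697035: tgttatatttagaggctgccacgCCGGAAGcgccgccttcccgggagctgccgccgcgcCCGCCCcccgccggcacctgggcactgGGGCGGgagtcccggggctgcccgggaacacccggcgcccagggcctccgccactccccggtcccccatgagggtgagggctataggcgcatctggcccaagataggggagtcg
TEX22, chr14:105864572-105864771: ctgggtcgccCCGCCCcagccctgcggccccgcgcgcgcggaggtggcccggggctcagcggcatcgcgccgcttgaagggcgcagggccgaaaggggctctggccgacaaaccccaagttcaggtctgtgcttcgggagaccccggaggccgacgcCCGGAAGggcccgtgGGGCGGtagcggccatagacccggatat
FBXO46, chr19:46234171-46234370: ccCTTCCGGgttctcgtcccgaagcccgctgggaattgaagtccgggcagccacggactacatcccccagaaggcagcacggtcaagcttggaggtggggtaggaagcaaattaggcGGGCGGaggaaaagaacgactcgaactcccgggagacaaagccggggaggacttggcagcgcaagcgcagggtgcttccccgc

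Of 1910 intron and distal windows with SNF5 that were outside exons and off chromosome 8, 66 held 2 or more of the 4 motif kinds, against 13 of 1003 without SNF5. Over all intron and distal peaks, the liver and AP-1 motifs were each more frequent with SNF5. FOXA letters were found in 128 of 2156 windows with SNF5 (5.94%, 5.02 to 7.01) and in 31 of 1121 without (2.77%, 1.95 to 3.90), a difference of 3.17 points (1.71 to 4.52). FOXA proteins are pioneer factors of liver and gut. HNF4 letters were found in 3.20% of windows with SNF5 and in 1.52% without, a difference of 1.68 points (0.567 to 2.69). C/EBP letters were found in 11.04% and 7.14%, a difference of 3.90 points (1.82 to 5.85), and AP-1 letters, which the JUN and FOS proteins bind, in 9.51% and 6.24%, a difference of 3.26 points (1.31 to 5.09). Over all 12852 windows of this length, the letters of FOXA, HNF4, C/EBP and AP-1 were present in 2.44%, 1.28%, 5.67% and 4.37%. TEAD letters (GGAATGT) were present in 3.39% and 2.41% of intron and distal windows with and without SNF5, and the interval of that difference (-0.295 to 2.11 points) includes 0.

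In promoter and exon windows, the intervals above 0 were those of the NRF1, ETS, SP, E-box and CRE letters. NRF1 letters were present in 334 of 7003 windows with SNF5 (4.77%, 4.29 to 5.29) and in 46 of 2572 without (1.79%, 1.34 to 2.38), and in 3.24% of all windows. The odds of meeting SNF5 were 2.75 times as high with the NRF1 letters as without them (2.01 to 3.76), and 2.54 times (1.85 to 3.51) when peaks were compared within 5 strata of width. ETS letters were present in 9.61% and 7.78%, a difference of 1.83 points (0.548 to 3.04), with 7.38% over all windows. E-box letters (CACGTG), which MYC and USF proteins bind, were present in 6.60% and 5.21%, and the CRE letters (TGACGTCA) of CREB and ATF proteins in 1.78% and 1.17%. The E-box odds ratio of 1.29 (1.05 to 1.57) was 1.22 within the strata of width, with an interval that includes 1 (0.988 to 1.51). The CRE odds ratio of 1.54 (1.03 to 2.30) was 1.56 (1.02 to 2.37) within those strata, but its interval included 1 within 5 strata of GC content (1.48, 0.989 to 2.21) and without chromosomes 2, 6 and 20 (1.49, 0.980 to 2.25). SP letters were present in 53.1% and 47.5%, but the odds ratio of 1.25 (1.14 to 1.37) came to 1.08 (0.982 to 1.19) within the strata of width. The HNF4, FOXA, C/EBP and AP-1 differences at promoters and exons were each above 0, but all had intervals that include 0. HNF4 letters, for example, were in 0.914% of these windows with SNF5 and 0.544% without (-0.0475 to 0.703 points). Whether the motif differences themselves differ between the classes was not tested. Of 24 differences computed for 12 motifs in both classes, 9 had intervals above 0 and 0 had intervals below it. YY1 (AAGATGG) and CTCF (GGNGGCAG) letters were among those whose intervals include 0 in both classes.

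**Figure D1:**
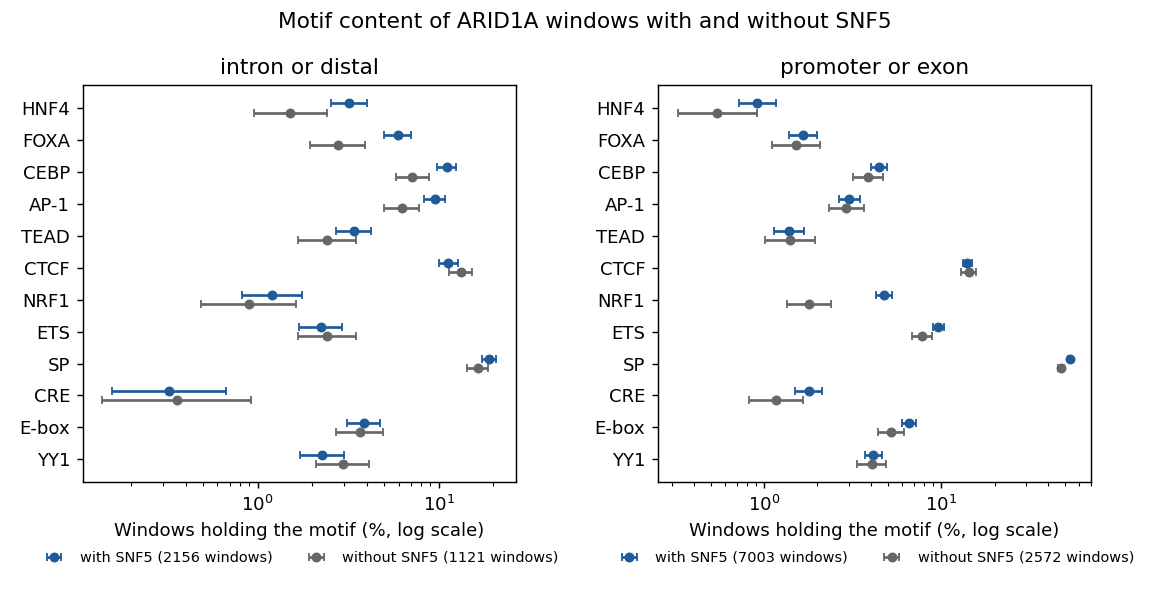
Share of 200 bp ARID1A windows (percent, log scale) that hold each motif, for intron and distal peaks on the left and promoter and exon peaks on the right, with SNF5 in blue and without SNF5 in gray; bars are Wilson 95% intervals. The bars of HNF4, FOXA, CEBP and AP-1 do not overlap on the left, nor do those of NRF1, ETS and SP on the right, where NRF1 is at 4.77% against 1.79%.

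The groups also differed in where the peaks lay. Of the peaks with SNF5, 6858 were at promoters (74.9%, 74.0 to 75.8), against 2475 of those without (67.0%), a difference of 7.86 points (6.11 to 9.63). Introns made up 11.6% of the peaks with SNF5 and 15.9% of those without, and distal sites 11.9% and 14.4%. Read by class, SNF5 was met by 73.5% of the 9333 promoter peaks, 67.2% of the 1623 distal peaks, 64.4% of the 1654 intron peaks and 59.9% of the 242 exon peaks. The exon minus distal difference was -7.24 points (-13.9 to -0.833), while the interval for intron against distal peaks (-5.95 to 0.539) includes 0. The promoter share was higher with SNF5 on 23 of 24 chromosomes, the exception being chromosome 22, where it differed by -0.256 points.

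The class difference moved together with peak width. ARID1A peaks with SNF5 had a median width of 266 bp (quartiles 153 and 471), and those without had a median of 151 bp (quartiles 88 and 219). A wider interval meets any other list more often by construction, so width bears on every share given here. Split into 10 bins of near-equal count, 47.5% of the narrowest peaks (53 to 71 bp) and 97.5% of the widest (644 to 3942 bp) met SNF5. The share was between 57.0% and 61.6% over the next 4 bins, from 72 to 218 bp, and rose in each bin above that. Promoter and exon peaks had odds of meeting SNF5 that were 1.42 times those of intron and distal peaks (1.3001 to 1.542), and within 5 strata of width this ratio was 1.07 (0.982 to 1.18). Within 5 strata of GC content it was 1.38 (1.25 to 1.51).

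**Figure D2:**
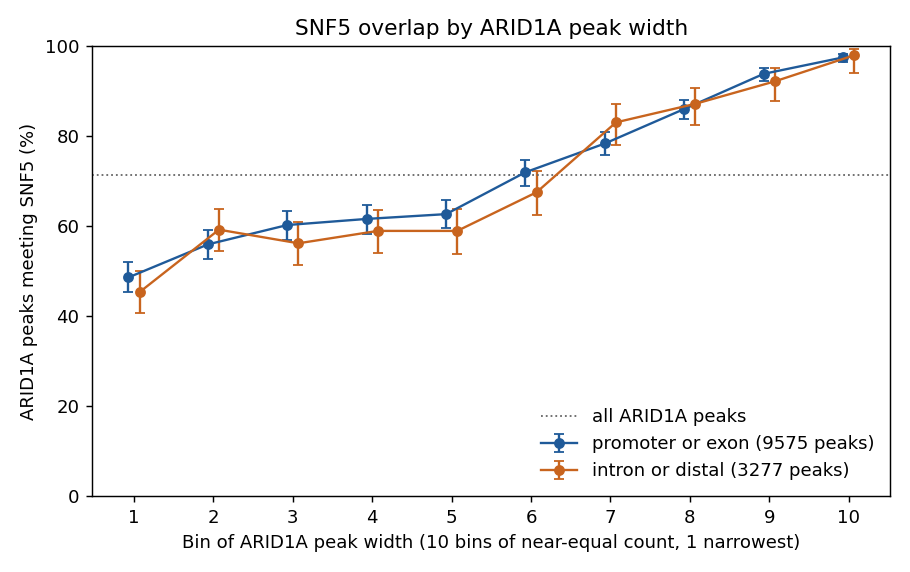
Share of ARID1A peaks that met SNF5 (percent) in 10 bins of peak width, for promoter and exon peaks (blue, 9575) and intron and distal peaks (orange, 3277); bars are Wilson 95% intervals and the dotted line is the share over all peaks. The curves run from 48.6% and 45.3% in the narrowest bin to 97.5% and 97.9% in the widest.

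Width differed in every class. Promoter peaks had a median of 291 bp with SNF5 and 157 bp without, distal peaks 216.5 and 140 bp, intron peaks 201 and 140 bp, and exon peaks 229 and 138 bp. The median was higher with SNF5 on 24 of 24 chromosomes. The 2 widest peaks of each class with SNF5 each lay wholly within an SNF5 peak. At promoters these were ZFP36L2, an RNA-binding regulator of mRNA decay (3942 bp at chr2:43451172-43455113), and SP5, a Wnt target of the SP family (3448 bp at chr2:171570349-171573796). In exons they were the small GTPase gene RHOB (3559 bp at chr2:20646168-20649726) and FTL, the ferritin light chain (3401 bp at chr19:49468204-49471604). Both of these exon peaks also cover the start of their gene, at chr2:20646835 and chr19:49468566. No peak of the promoter class had an authors' distance above 997 bp from a gene start, so a wide peak over a start can be classed elsewhere. In introns they were assigned to SOX9 (2237 bp at chr17:70118381-70120617), a bile duct and cartilage factor, and HLF (2022 bp at chr17:53363047-53365068). Distal examples were RNASE4 (1995 bp) and AC016735.1 (1728 bp).

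The widest peaks without SNF5 were narrower, and several lay next to an SNF5 peak. The widest was at the FLYWCH2 promoter (1042 bp at chr16:2932605-2933646), 20831 bp from SNF5. SNAI1, a repressor of epithelial genes, had a promoter peak of 988 bp at chr20:48598858-48599845, 3016 bp from SNF5. The intronic peaks assigned to RAI1 (808 bp) and UGDH (743 bp) were 65 and 748 bp away, and the distal peak assigned to EHBP1L1 (614 bp) was 61 bp away. A distal peak assigned to FAM27C (695 bp), in a state the authors labelled repetitive or copy number variable, was 739038 bp away. In exons the widest were NRARP (457 bp), a Notch target, and KAZALD1 (428 bp).

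The overlaps themselves were mostly deep. Of the peaks with SNF5, 6080 (66.4%) lay wholly inside an SNF5 peak, and 8149 (89.0%) had 50% or more of their length covered. In all, 2.86 Mb of the 3.94 Mb under ARID1A peaks was shared. At the boundary of the rule, 89 peaks shared 10 bp or less with SNF5, and 79 peaks without SNF5 ended within 10 bp of it. Among SNF5 peaks, 7289 of 20718 (35.2%) held ARID1A, and these had a median width of 929 bp against 429 bp for the 13429 that did not. Of the SNF5 peaks with ARID1A, 5840 held 1 ARID1A peak, 1135 held 2, 229 held 3 and 85 held 4 or more, up to 10, and their median widths were 800.5, 1511, 2376 and 3758 bp.

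Among the 3693 peaks without SNF5, proximity to SNF5 was common. The median gap was 827 bp (quartiles 199 and 16073 bp), 540 peaks (14.6%) lay within 100 bp of an SNF5 peak, and 1926 (52.2%) lay within 1000 bp. The gap exceeded 1000 bp for the other 1767. The farthest were both at the promoter of ZNF254, a KRAB zinc finger gene at chr19:24216207-24312770. These peaks, of 163 and 77 bp, lay 3628772 and 3629298 bp from SNF5. Promoter peaks had the shortest median gap (620 bp), followed by exon (1136 bp), intron (1423 bp) and distal peaks (1698 bp). Their upper quartile was the largest, at 18273.5 bp, against 10622 bp in exon, 13311.8 bp in intron and 16225 bp in distal peaks. The interval of the promoter median (545 to 713 bp) lies below those of intron (1093 to 1924 bp) and distal peaks (1071 to 2571 bp), whereas the intron and distal intervals overlap.

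**Figure D3:**
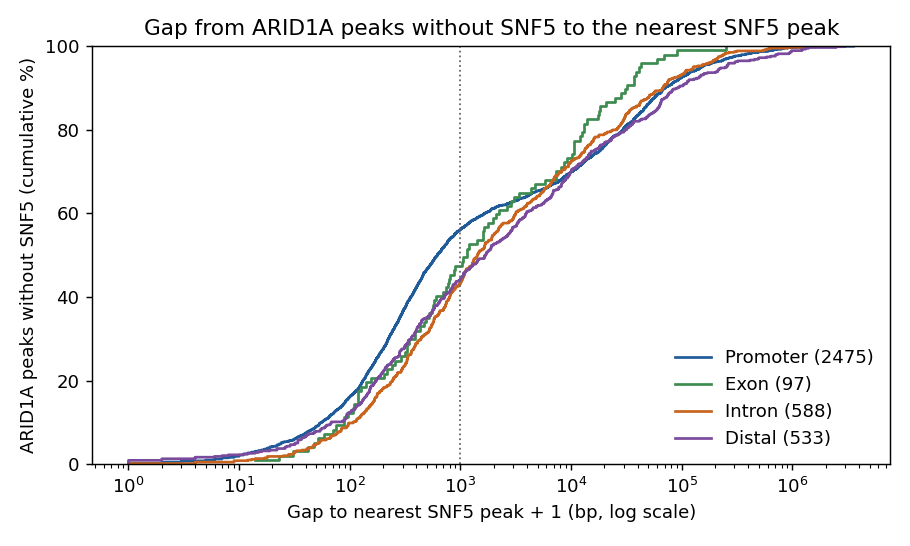
Cumulative share (percent) of the 3693 ARID1A peaks without SNF5 by the gap to the nearest SNF5 peak plus 1 (bp, log scale), by feature class; the dotted line marks a gap of 1000 bp. The promoter curve is the highest at 1000 bp, and over all classes 52.2% of the peaks lie within that distance.

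The peaks without SNF5 were therefore described as 1926 near peaks, with a gap of at most 1000 bp, and 1767 far peaks. Near peaks were closer to the peaks with SNF5 than far peaks were in promoter share, but not in width. Promoters held 72.2% of the near peaks (70.2 to 74.2), 61.3% of the far peaks (59.1 to 63.6) and 74.9% of the peaks with SNF5. The median width was 148 bp in near peaks and 154 bp in far peaks. Within promoters, the near peaks lay farther from the transcription start site (TSS), at a median of 205 bp (187 to 223), than the far peaks at 107 bp (96 to 122) or the peaks with SNF5 at 105 bp (100 to 110). The active promoter state of the authors' chromatin annotation held 63.5% of near, 58.7% of far and 63.2% of SNF5-overlapped peaks, and the strong enhancer state numbered 4 held 15.4%, 11.9% and 17.6%. The weak promoter state held 12.3%, 16.3% and 11.2%. These deposited states did not always match the feature class of a peak, and whether each is listed with the right peak was not tested.

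Distance from the TSS told the same groups apart over the whole list. Peaks with SNF5 had a median distance of 194 bp and those without had 374 bp. SNF5 was met by 77.1% of the 4334 peaks under 100 bp from a TSS, and by 63.6% of the 1201 peaks from 500 to under 1000 bp. Median widths in these ranges were 261 and 184 bp. Had their peaks met SNF5 as often as all peaks of the same width bin, the shares would have been 74.3% and 67.5%. At longer distances the share was between 62.3% and 68.9% in each of 5 ranges. Within distal peaks the order was the reverse, with medians of 8721 bp (7883 to 9719) with SNF5 and 6826 bp (6019 to 7896) without. These intervals barely overlap, and overlap of separate intervals does not show that the medians are equal. Intron peaks had medians of 4057.5 bp (3618 to 4614) and 3916.5 bp (3352 to 4468), with intervals that overlap widely. Against transcript starts of the Gencode release 44 annotation, 75.3% of promoter peaks upstream of the start and 72.0% of those downstream met SNF5, a difference of 3.27 points (1.48 to 5.06).

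Shares also varied by the deposited chromatin state, with no common order of strong and weak enhancers. The state of a peak did not always match its feature class, and how often it did was not counted. The LSS promoter peak, 8 bp from a TSS, was in a heterochromatin state, and the CDK4 promoter peak, 10 bp from one, in weak enhancer state 6. An intronic CDK6 peak 22380 bp from a TSS was in the active promoter state, as were all 5 AC068279.3 peaks, which are distal. By position, median widths were 238 bp at promoters and 171.5 bp in introns, a contrast that the states below lack. Whether each state is listed with the right peak was not tested. State shares are therefore not shares of promoters or enhancers as classed by position, and the state names are only those of the deposited list. SNF5 was met by 76.1% of 2118 peaks in the strong enhancer state numbered 4, 71.9% of 8045 in the active promoter state, 66.2% of 1554 in the weak promoter state and 60.9% of 335 in the weak enhancer state numbered 6. The share in strong enhancer state 4 was 4.15 points above that in the active promoter state (2.05 to 6.18), with median widths of 220 and 219 bp. It was 15.2 points above the weak enhancer state numbered 6 (9.76 to 20.8), whose median width was 211 bp. The other pair of enhancer states had the opposite order, with 65.1% of 241 peaks in the strong enhancer state numbered 5 (58.9 to 70.9) and 73.5% of 49 peaks in the weak enhancer state numbered 7 (59.7 to 83.8), and these intervals overlap.

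Base composition differed little. Peaks with SNF5 had a median GC content of 64.4%, and peaks without had 63.3%. In the 200 bp windows, promoters had medians of 67.5% and 66.0%, whereas distal sites had 53.0% and 55.5% and introns had 51.0% and 53.0%. Promoter windows held a median of 18 CpG dinucleotides with SNF5 and 16 without.

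The authors labelled each ARID1A peak multiple when another ARID bound there and single otherwise. In every class most multiple peaks met SNF5, with shares of 88.5% at promoters, 88.9% in exons, 89.8% in introns and 91.1% at distal sites. Single peaks met SNF5 less often in every class, and their share was higher at promoters (58.4%, 57.0 to 59.8) than in introns (47.7%, 44.7 to 50.8) or at distal sites (47.9%, 44.7 to 51.2). Multiple peaks were also wider, with a median of 330.5 bp against 168 bp. The odds ratio for multiple against single peaks was 6.57 (5.99 to 7.21) and 4.14 (3.75 to 4.57) within 5 strata of width. The label rests on ARID peak lists that were not compared with SNF5 here.

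**Figure D4:**
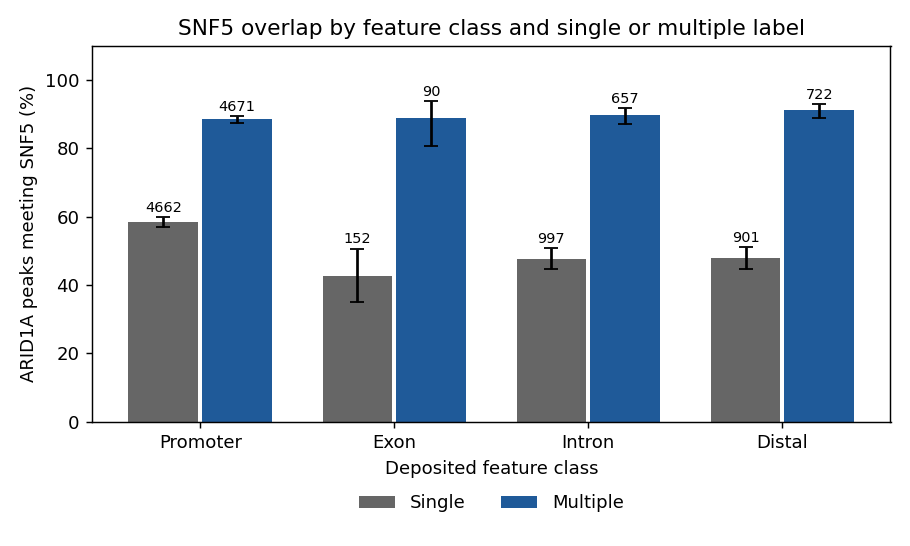
Share of ARID1A peaks that met SNF5 (percent) by deposited feature class, for peaks labelled single (gray) and multiple (blue); bars are Wilson 95% intervals, and the number above each bar is its count of peaks. Multiple peaks stand between 88.5% and 91.1% in all 4 classes, and single peaks between 42.8% and 58.4%.

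SNF5 overlap was uneven along the genome. Chromosomes 2, 6 and 20 had the highest shares, at 83.3% of 1150, 80.7% of 963 and 85.0% of 528 ARID1A peaks. The 20 other chromosomes apart from X ranged from 59.7% to 74.9%, and on chromosome X 8 of 35 peaks met SNF5 (22.9%, 12.1 to 39.0). Chromosomes 2, 6 and 20 were singled out after their values were seen. Together they stood at 82.7% against 68.3% for the rest, a difference of 14.4 points (12.6 to 16.1), and the odds ratio of 2.22 (1.99 to 2.47) was 2.11 (1.88 to 2.36) within 5 strata of width. The shift was present in each class, at 86.3% against 70.5% of promoter peaks, 76.9% against 60.6% of intron peaks and 75.5% against 63.9% of distal peaks. The median ARID1A width was 240, 238 and 259 bp on chromosomes 2, 6 and 20, and the median SNF5 width was 610, 610.5 and 651.5 bp. Chromosomes 16 and 17 came close in width, with ARID1A medians of 239 and 230 bp and SNF5 medians of 579 and 596 bp, and their shares were 74.9% and 72.3%.

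**Figure D5:**
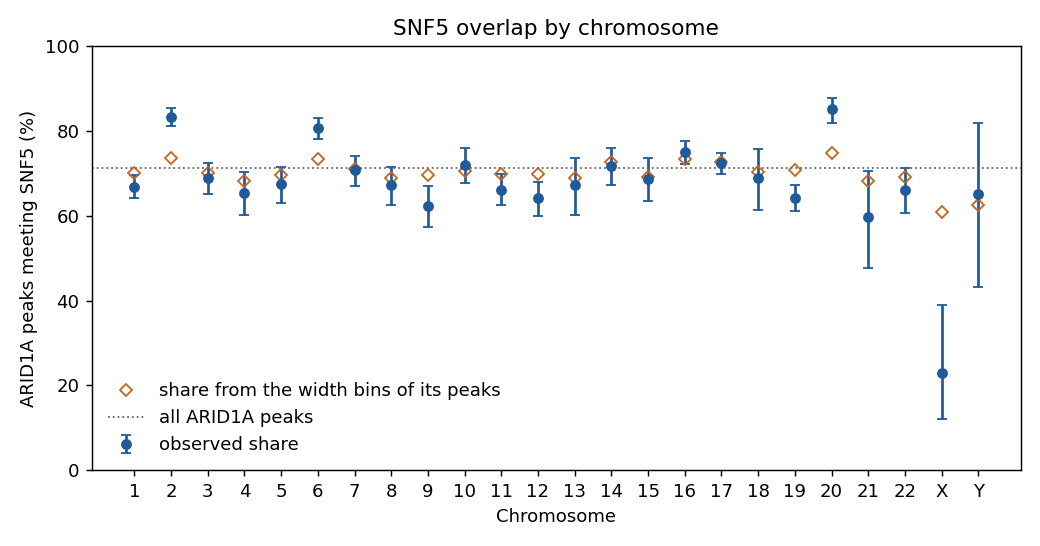
Share of ARID1A peaks that met SNF5 (percent) by chromosome, as blue points with Wilson 95% intervals; orange diamonds give the share each chromosome would have if its peaks met SNF5 as often as all peaks of their width bin, and the dotted line is the share over all peaks. Chromosomes 2, 6 and 20 lie above their diamonds and the others close to or below theirs, with X lowest at 22.9%.

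Chromosome 14 was split within itself. Between 20 and 40 Mb, 158 of 169 ARID1A peaks met SNF5 (93.5%, 88.7 to 96.3), and from 40 Mb onward 141 of 248 did (56.9%, 50.6 to 62.9), a difference of 36.6 points (29.0 to 43.5) that was also picked after the values were seen. ARID1A peaks had median widths of 318 and 187 bp in these stretches, and the odds ratio over 5 width strata was 9.03 (4.498 to 18.1). The FOXA1 gene and the wide RNASE4 peak lie in the high stretch. DNA copy number and read depth along the chromosomes were not analysed here, and their part in these differences was not tested.

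The peaks were assigned by the authors to 8448 nearest-gene names. Of these, 6442 (76.3%) had at least 1 ARID1A peak with SNF5. All peaks of 5252 names met SNF5, some peaks of 1190 names did, and none of the peaks of 2006 names did. Names with 1 peak had SNF5 in 68.9% of cases, and names with 4 or more peaks had SNF5 at 1 or more of them in 99.5%, as a name with more peaks has more chances. Of the 3693 peaks without SNF5, 1497 (40.5%) were assigned to a gene that had another ARID1A peak with SNF5.

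The names with the most SNF5-overlapped peaks were Metazoa_SRP (29 of 43 peaks) and U6 (26 of 42), which are shared by many small RNA copies, followed by 3 single genes. SLC7A5, the large neutral amino acid transporter at chr16:87863629-87903113, had 22 ARID1A peaks, of which 21 met SNF5 and the other lay 96 bp from it. SEPT9, a septin of the cytoskeleton, had 21, of which 17 met SNF5, and its 4 others were 138 to 287 bp from SNF5. The pseudogene CDC27P1 had 16 peaks, 14 with SNF5, mostly in a repetitive or copy number variable state. FOXQ1, a forkhead factor on chromosome 6, was noticed after the values were seen, with 11 of 11 peaks overlapping SNF5.

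The genes with the most peaks without SNF5 were partly names shared by many loci. U6 (16 of 42 peaks without SNF5), Metazoa_SRP (14 of 43) and Y_RNA (9 of 20) are families of small RNA copies, and their shares do not describe a single locus. GDF15, a stress-induced hormone of liver, had 10 peaks, of which 6 did not meet SNF5. Its promoter peak of 774 bp met SNF5 over 747 bp, while a peak of 216 bp just downstream lay 253 bp outside. AC068279.3, on chromosome 2, had 5 of 5 peaks without SNF5, 43663 to 74728 bp from it. GNA11, a G protein subunit gene at chr19:3094360-3123997, was noticed after the values were seen, with 5 of 5 peaks outside SNF5 at gaps of 782 to 6211 bp. All 5 were labelled single.

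Liver genes were taken from 2 lists. The hepatocyte transcription factor list had ARID1A peaks at 16 of 25 genes, and 36 of 47 peaks met SNF5 (76.6%, 62.8 to 86.4). HHEX, a liver bud homeobox gene, had 7 of 7 peaks with SNF5, CEBPB 5 of 6 and GATA4 3 of 5. At HHEX, 6 peaks shared 1 SNF5 peak at chr10:94448522-94453343. FOXA2 had 3 of 3 peaks with SNF5 and HNF4A 2 of 3. FOXA1 had 2 of 3, where the peak at its promoter lay 86 bp from SNF5. Secreted plasma protein genes met SNF5 at 51 of 66 peaks (77.3%, 65.8 to 85.7). APOB, the main protein of low-density lipoprotein, had 6 of 6 with SNF5, of which 5 met 1 SNF5 peak at chr2:21262910-21267270. Of those 5, 1 peak of 250 bp shared only 14 bp with it. PROC, which encodes the anticoagulant protein C, had 4 of 6, and APOC3 had 4 of 5. AFP, the fetal albumin and a marker of liver tumours, had 1 of 4, and its promoter peak of 53 bp lay 1 bp from SNF5.

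Both liver lists had median widths near those of all peaks (212 and 200 bp against 218 bp). Had their peaks met SNF5 as often as all peaks of the same width bin, the shares would have been 68.9% and 68.6%, within both intervals. The hepatocyte markers ALB, APOA1 and TTR had 0 ARID1A peaks assigned as nearest gene, and AFP, APOB, SERPINA1, HNF4A and FOXA2 had 3 to 6 each. The markers of other cell types PTPRC, MYOD1, NEUROD1 and SFTPC had 0 peaks.

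The KLF and AP-1 families had wider median peaks than the 218 bp of all ARID1A peaks. KLF and SP factors met SNF5 at 17 of 19 peaks (89.5%, 68.6 to 97.1), with a median width of 472 bp and 82.4% from their width bins, which lies within that interval. KLF9, SP5, KLF10 and KLF6 each had SNF5 at all their peaks. The only members with a peak outside SNF5 were SP1 and SP3, each with SNF5 at 1 of 2 peaks. AP-1 factors met SNF5 at 20 of 30 peaks (66.7%, 48.8 to 80.8), with a median width of 311.5 bp and 76.5% from their width bins, also within the interval. At promoters 17 of 21 AP-1 peaks met SNF5. JUN had 3 of 3, FOSB 3 of 4, and ATF4 and JUND 2 of 3 each. Both intervals include the background.

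The histone gene clusters met SNF5 at 60 of 67 peaks (89.6%, 79.97 to 94.8), including 46 of 46 at promoters. Their width bins gave 78.4%, and 55 of the 67 lay on chromosome 6, where 80.7% of all ARID1A peaks met SNF5. HIST1H3PS1 had 7 of 9, HIST1H2BC 4 of 4, HIST1H1PS2 2 of 3 and HIST1H4B 2 of 3. Histone genes are near-identical copies, so the assignment of reads between them is uncertain. The other lists lay closer to the background. Cytoplasmic ribosomal protein genes, which are transcribed in nearly every cell, met SNF5 at 54 of 79 peaks (68.4%), cholesterol synthesis genes at 25 of 32 (78.1%), and cyclins and CDK inhibitors at 18 of 28 (64.3%). SREBF1, which encodes a master regulator of lipid synthesis, had 5 of 7, and FDFT1, which encodes squalene synthase, had 2 of 4. CDKN1A, which encodes the cell cycle inhibitor p21, had 4 of 5, CDK6 3 of 4, and CCND1 and CCND3 1 of 3 each. ZNF genes met SNF5 at 158 of 229 peaks (69.0%), small nuclear and nucleolar RNA genes at 123 of 169 (72.8%) and microRNA genes at 71 of 94 (75.5%), with MIR21 at 6 of 6.

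The genes of the complex itself met SNF5 at 26 of 36 peaks (72.2%, 56.0 to 84.2), a share near the background. ACTB had 3 of 5, ARID1A 2 of 4, ARID2 3 of 4 and SMARCD2 3 of 4. SMARCB1, which encodes SNF5, had 1 of 1, while ACTL6A, which encodes the actin-like subunit BAF53A, had 0 of 2.

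At the loci that the study examined individually, ARID1A peaks assigned to MYC met SNF5 in 6 of 6 cases, of which 5 lay within 1 SNF5 peak, and those assigned to KLF6 in 2 of 2. The KLF6 promoter peak (1463 bp at chr10:3826886-3828348) lay wholly inside SNF5. RRAS, a RAS-related GTPase, had a promoter peak of 522 bp that shared 290 bp with SNF5. EPHA2, an ephrin receptor, had 1 of 3, its promoter peak sharing 100 of its 554 bp and its 2 intronic peaks lying 1656 and 2114 bp away. SPOCK2 had 2 of 3, all distal and at least 24112 bp from its start. No ARID1A peak was assigned to S100A14 or TNS4, although 1 peak without SNF5 lay within 5000 bp of S100A14. Counted within 5000 bp of the gene in the same way, EPHA2 had 4 ARID1A peaks, of which 2 met SNF5. By that count RRAS had 2, both with SNF5, and SPOCK2 had 0.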

How the data were processed

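Per the methods of the study, Bowtie2 alignments to hg19 were filtered for duplicates, the 2 replicates of an antibody were combined, and MACS2 then called broad peaks, which the authors joined where close and cleared of blacklisted regions. The deposited files used here are the ARID1A list, with the authors' feature class, nearest gene, distance to the nearest TSS in bp, single or multiple label and chromatin state, and the SNF5 list, of which the positions alone were used. The ARID1B and ARID2 lists and the input were not analysed here. Printed positions count from 1, whereas the files count starts from 0, and width is end minus start.

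Overlaps of 1 bp or more were counted in Python 3.11.15 with pandas. Shares carry Wilson intervals, differences of shares Newcombe intervals, medians order-statistic intervals and stratified odds ratios Mantel-Haenszel intervals, all at 95%. The code was tested on simulated intervals. Sequence came from GRCh37, gene positions and exons from Gencode release 44 lifted to that build, in which the assigned gene of 10515 of the 12852 peaks (81.8%) was found by name. Windows of 4 peaks on chromosome Y hold unknown bases. Named genes were the up to 4 members of each list with the most ARID1A peaks, the liver markers, the loci of the study, the 5 names with the most peaks with and without SNF5, the 2 widest peaks of each class in each group, and the 2 peaks farthest from SNF5. Some genes that this rule names are not reported here. Other members of the liver, complex, and KLF and SP lists (FOXA1, SMARCB1, ACTL6A, SP1 and SP3) and the windows shown were chosen after their values were seen. The members, lists and comparisons were all chosen with earlier results of these data known.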

Additional observations from a re-analysis of the deposited data

How the results depend on the processing

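Of 67 alternatives for 19 results, 38 stayed within the interval of the value reported. No difference or ratio changed direction. The share of ARID1A peaks with SNF5 and the share of genes with SNF5 have no direction that could change. The rule for overlap moved the share of ARID1A peaks with SNF5 most: it was 63.4% when 50% of the ARID1A peak had to be covered, 13.03% with a reciprocal overlap of 50%, 86.3% with a gap of at most 1000 bp, 63.7% with the ARID1A midpoint inside SNF5, 73.0% after joining ARID1A peaks at most 1000 bp apart, 57.6% with the widest 50% of SNF5 peaks and 68.3% without chromosomes 2, 6 and 20. A reciprocal rule leaves few matches by construction, since SNF5 peaks are wider. In the same order for the first 5 of these settings, the promoter share with minus without SNF5 was 4.97, 16.2, 13.1, 5.27 and 14.4 points, and the multiple share difference was 38.7, 31.7, 37.0, 38.8 and 47.1 points. The latter was 38.1 points without chromosomes 2, 6 and 20. When promoters were defined by TSS distance, the promoter difference was 11.4 points with a limit of 500 bp and 2.75 points with 5000 bp. The ratio of median widths, 1.76 as reported, was 1.49 within introns and distal sites and 1.53, 2.64, 1.52 and 1.56 under the first 4 rules. Within 5 strata of width, the odds ratio fell to 1.07 for promoters and exons, to 4.14 for multiple peaks and to 1.08 for the SP motif, and the E-box value of 1.22 had an interval that includes 1 (0.988 to 1.51). The CRE interval included 1 within 5 strata of GC content and without chromosomes 2, 6 and 20. The share of genes with SNF5 was 85.6% with a gap of at most 1000 bp. Alternatives that leave out or stratify chromosomes 2, 6 and 20 or chromosome 14, and those for the motifs, were chosen after seeing the data. No paired analysis was possible because each list was called on merged replicates, and for the same reason no replicate could be left out. Depth is unknown, so a limit of detection for SNF5 could not be given.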

Other observations

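Joining ARID1A peaks at most 1000 bp apart left 9804 regions, of which 7159 met SNF5. Peaks nearest to genes typed as ribosomal RNA in the Gencode annotation met SNF5 in 33 of 36 cases (91.7%, 78.2 to 97.1), with a median width of 267.5 bp, and those nearest to unprocessed pseudogenes in 9 of 22 (40.9%, 23.3 to 61.3), with a median width of 151.5 bp. Reads from such repeated copies can be placed on another copy. Long noncoding RNA genes (72.7% of 275 peaks) and protein-coding genes (71.0% of 9586) lay near the share of all ARID1A peaks.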
